A study of Homo sapiens with 8 samples.

Results

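The genes described here encode histones, the proteins around which DNA is wound in chromatin. They were taken from the authors' deposited table by name, using current and older histone symbols and leaving out pseudogenes. The 31 described here, among 11992 genes of the table, comprise 28 in its HUH7 column, 6 in its PLC/PRF/5 column and 3 in both. HUH7 and PLC/PRF/5 are cell lines established from hepatocellular carcinoma. In each line, m6A MeRIP-seq compared parental control cells with CSTF2 knockout cells made by CRISPR-Cas9 editing, and each genotype gave an immunoprecipitate and an input library. The 8 groups held 1 library each, so no value below has a replicate, an error or a p-value. Whether a knockout line was 1 clone or a pool is not given in the sources used here. In this assay an antibody to N6-methyladenosine (m6A) captures methylated RNA fragments, which are sequenced beside the input, and each value is a log2 fold change of a difference between the genotypes. The table's headers do not say which genotype is the numerator, so signs are reported as deposited and point neither to the knockout nor to the parental cells.

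Histone genes fall into a pair of classes by how their mRNAs end. Replication-dependent genes are typically intronless, lie mostly in clusters, supply histones during S phase, and typically give mRNAs that end in a conserved stem-loop without a poly(A) tail. Of the 20 listed in HUH7, 5 have longer RefSeq models, of 2224 to 13229 bases, and were kept in the class. Variant genes such as H3-3B, H2AZ2 or CENPA lie alone and give ordinary polyadenylated mRNAs. H3-3B and H2AZ2 are used through the cell cycle. H2AX mRNA is made in both forms and was kept apart. CSTF2 belongs to the cleavage stimulation factor, which acts in forming polyadenylated 3′ ends, and it is also found in the complex that cuts histone mRNAs after the stem-loop. Per the labels' protocols, RNA was selected with oligo(dT) beads, which bind poly(A) tails. How much of each class of histone mRNA passed that step was not measured here.

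The largest HUH7 values of opposite sign among neighbouring histone genes came from a divergent pair, in which an H2B gene and an H2A gene start from either side of 1 short stretch of chromosome 6. H2BC11 had -8.94 and H2AC11 had 9.50 in the authors' deposited table, with 247 bases between their starts. Both values are shared exactly with many other genes of the HUH7 column, -8.94 being held by 110 genes and 9.50 by 56. Their size is therefore not particular to this pair. The other divergent pair with both genes listed had the milder values of -0.56 for H2BC4 and 2.45 for H2AC6 in the authors' deposited table, across 245 bases. The member with the largest value not shared exactly by many other genes (H2BC9), the member with the lowest value (H2BC8), both of them H2B genes, and the polyadenylated variant CENPA are shown beside them. The stretches are RefSeq sequence of GRCh38.p14, 5′ to 3′ on the strand of the gene named, and end at the base before its start. They cover chr6:27132796-27133042 for H2BC11, chr6:26123927-26124171 for H2BC4, chr6:26251494-26251613 for H2BC9, chr6:26216689-26216808 for H2BC8 and chr2:26785936-26786055 for CENPA. H2BC9 and CENPA lie on the plus strand and the others on the minus strand. Capitals mark TATAAA (a core promoter box), CCAAT (bound by the factor NF-Y) and ATTTGCAT (the octamer of H2B promoters) on either strand. In H2BC11 and H2BC4, the far end of the stretch is the base before the start of H2AC11 and H2AC6.
H2BC11: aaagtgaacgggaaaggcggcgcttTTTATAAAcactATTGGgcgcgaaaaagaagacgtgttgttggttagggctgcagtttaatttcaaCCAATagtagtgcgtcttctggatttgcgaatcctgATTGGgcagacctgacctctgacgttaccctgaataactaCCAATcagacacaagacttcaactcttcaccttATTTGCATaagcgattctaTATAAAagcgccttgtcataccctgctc
H2BC4: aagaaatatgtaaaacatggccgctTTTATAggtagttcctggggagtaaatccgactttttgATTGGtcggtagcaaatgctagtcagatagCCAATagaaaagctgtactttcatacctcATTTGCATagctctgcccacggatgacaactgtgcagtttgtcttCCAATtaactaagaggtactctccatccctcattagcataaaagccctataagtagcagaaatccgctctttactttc
H2BC9: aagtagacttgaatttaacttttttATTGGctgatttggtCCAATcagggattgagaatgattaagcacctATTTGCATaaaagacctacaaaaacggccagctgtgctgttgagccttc
H2BC8: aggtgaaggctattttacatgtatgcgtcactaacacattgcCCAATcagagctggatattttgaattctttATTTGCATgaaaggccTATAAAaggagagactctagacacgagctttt
CENPA: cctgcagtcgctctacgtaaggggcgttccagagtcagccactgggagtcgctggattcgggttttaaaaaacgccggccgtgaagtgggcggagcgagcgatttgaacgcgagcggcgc

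The letters around the starts were alike in H2B genes whose values lay far apart. The octamer began 49 bases before the start of H2BC9, 48 before H2BC8 and 47 before H2BC11, and a CCAAT began 80, 78 and 80 bases before them. H2BC8 and H2BC11 also held TATAAA, at 32 and 28 bases, while the 120 bases of H2BC9 held none. H2BC4 held its octamer farther away, at 123 bases. The 120 bases of CENPA held none of the 3 motifs, while the 250 bases before its start held CCAAT. Over the 250 bases before the start and on both strands, the octamer was found in 11 of 20 replication-dependent genes listed in HUH7 (6 of 7 H2B, 4 of 6 H2A, 1 of 4 H3, 0 of 2 H4 and not in H1-3), against 1.66% of 27305 RefSeq promoters. The first start listed for each gene was used. The H3 gene was H3C4, whose first start is also that of the neighbouring H2AC7 (chromosome 6, position 26199293), so that both genes share this window. H2BC11 and H2AC11 lie 247 bases apart and H2BC4 and H2AC6 245, so the same letters count for both genes of each pair. The window of H2AC17 likewise reaches the unlisted H2BC17. The 11 genes therefore do not stand for 11 separate octamers. TATAAA was found in 14 of the 20 and in 11.1% of all promoters, and CCAAT in 18 of the 20 and in 33.04% of all promoters. Of the 7 polyadenylated variants listed in HUH7, H3-3B held the octamer, 2 held TATAAA and 4 held CCAAT. These are matches of letters, and the methylation values are not tied to promoters.

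The table listed some histone genes of both classes and left out others. The HUH7 column named 20 of the 71 replication-dependent genes in RefSeq and 7 of the 12 polyadenylated variants, and also H2AX. By family, it named 6 of 17 replication-dependent H2A genes, 7 of 18 H2B genes, 4 of 15 H3 genes, 2 of 15 H4 genes and 1 of 6 linker H1 genes. PLC/PRF/5 named 3 replication-dependent genes, all of them linker H1 genes, and 0 of the core histone genes of that class. It also named 2 polyadenylated variants and H2AX. No replication-dependent gene was listed in both lines. Over all genes, the columns held 10447 and 5475 of 11992. With only 3 of the 71 genes listed in PLC/PRF/5, the absence of a shared gene says little about the class and was not tested. Whether a gene went unlisted for want of a peak, of reads or of a difference was not tested. One further HUH7 name, H4-16 (2.14 in the authors' deposited table), is a synonym of several H4 genes in RefSeq and was not counted.

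**Figure D1:**
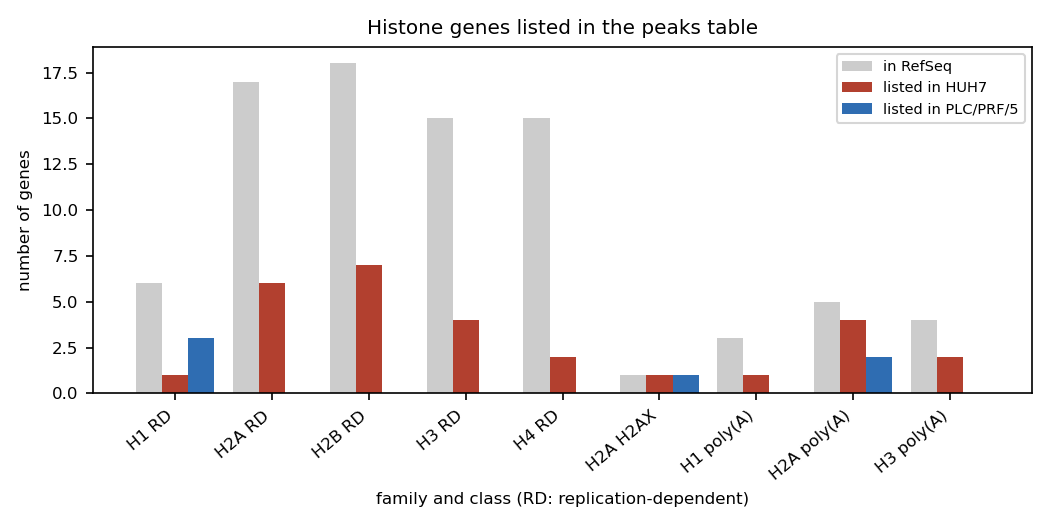
Number of histone genes in RefSeq (grey), in the HUH7 column (red) and in the PLC/PRF/5 column (blue), by family and class. HUH7 holds 20 of 71 replication-dependent genes and PLC/PRF/5 holds 3, all of the H1 family.

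The HUH7 values of the replication-dependent genes were large and went both ways, and those of the polyadenylated variants were small. Without regard to sign, the median size was 2.90 on the log2 scale for the 20 replication-dependent genes, 0.48 for the 7 variants and 0.65 for all 10447 genes of the column. A value of 1 or more in size was held by 14 of the 20 replication-dependent genes and by 1 of the 7 variants, CENPA, and by 36.9% of all genes. A value of 2 or more was held by 13 of the 20, by 0 of the 7 and by 21.4% of all genes. Of the 14 replication-dependent genes past 1, 13 were also past 2. At 1 or more lay 11 of the 20, against 22.2% of all genes, and at -1 or less 3, against 14.6%. All 3 of these low values are shared exactly by many other genes of the column. Replication-dependent values not shared in this way ran from -0.56 to 5.79. In all, 13 were positive and 7 negative, with a median of 1.83 (interquartile range -0.35 to 3.48). The variants had 4 positive and 3 negative values and a median of 0.02 (-0.38 to 0.66), and the whole column had 60.8% positive values and a median of 0.20 (-0.36 to 0.87). The share of positive genes, 65.0% and 57.1%, was close to that of the column in both classes, and the classes lay farther apart in the size of their values. The members were chosen by name with earlier results of these data known, and no test was run between the classes.

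**Figure D2:**
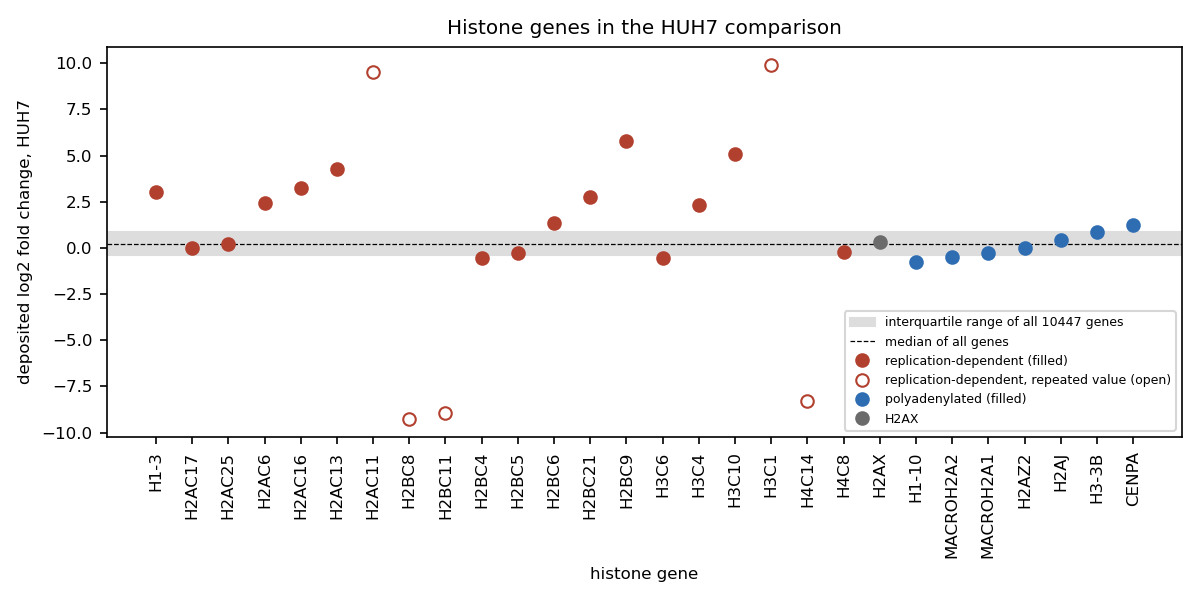
Deposited HUH7 log2 fold change of 28 histone genes (points), grouped by class and family, with the median (dashed) and interquartile range (grey) of all 10447 genes. Replication-dependent genes run from -9.27 to 9.92, while the 7 polyadenylated variants stay between -0.75 and 1.24. Open points are values shared exactly by many other genes, and without them replication-dependent genes run from -0.56 to 5.79.

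**Figure D3:**
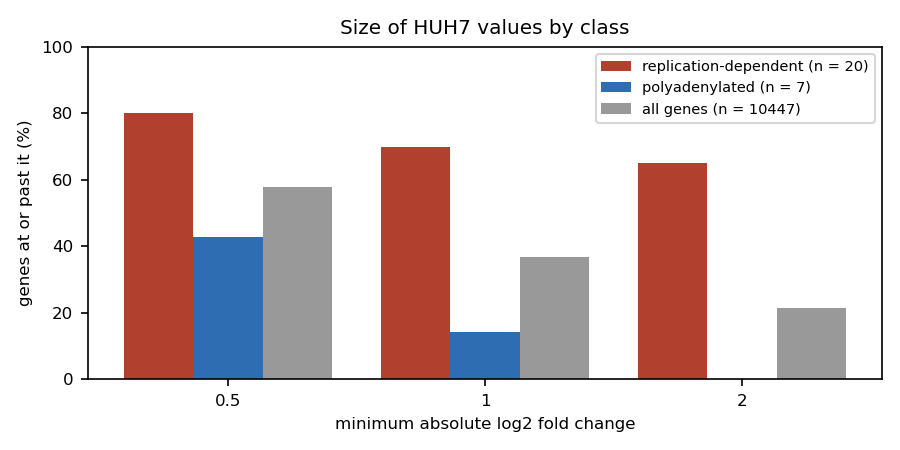
Percent of genes whose HUH7 log2 fold change is at or past 0.5, 1 or 2 in size, for 20 replication-dependent genes, 7 polyadenylated variants and all 10447 genes. At 2 the shares are 65.0%, 0% and 21.4%.

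The 6 replication-dependent H2A genes, which encode a core histone that pairs with H2B, were all positive in HUH7. H2AC11 (9.50), H2AC13 (4.28), H2AC16 (3.22) and H2AC6 (2.45) were past 1 in the authors' deposited table. H2AC25, listed under the older name H2AW, had 0.21 and H2AC17 had 0.01 in the authors' deposited table. The last of these lay close to 0, so its sign carries little weight. Over the whole column 60.8% of genes were positive.

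The H2B genes had the widest range of the replication-dependent families. H2BC9 (5.79), H2BC21 (2.77) and H2BC6 (1.32) were positive in the authors' deposited table. H2BC5 (-0.28) and H2BC4 (-0.56) were slightly negative, and H2BC11 (-8.94) and H2BC8 (-9.27) strongly so, in the authors' deposited table. Their median was -0.28, and H2BC8 held the lowest value of the whole HUH7 column, shared with other genes. H2BC9 and H2BC8 both lie in the cluster on chromosome 6, at 26251614 to 26252075 and at 26216200 to 26216688 (GRCh38).

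H3 and H4 genes encode the inner pair of core histones, on whose tails most known chromatin marks lie. H3C1 (9.92), H3C10 (5.09) and H3C4 (2.34) were positive and H3C6 (-0.53) negative in the authors' deposited table. The RefSeq model of H3C4 contains that of H2AC7, so reads there can belong to either gene. Of the H4 genes, H4C8 had -0.24 and H4C14 had -8.27 in the authors' deposited table. H3C4 and H2BC21 were the replication-dependent members past 1 whose RefSeq gene is longer than 1000 bases. The linker histone gene H1-3, whose product binds the DNA between nucleosomes, had 3.03 in the authors' deposited table. Copies of histone genes within a family are near-identical, reads can be shared between them, and how such reads were assigned is not given in the sources used here.

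Of the 20 replication-dependent genes, 5 held repeated values, meaning values that 10 or more genes of the column share to 6 decimals. H2AC11 and H3C1 were on the positive side, and H4C14, H2BC11 and H2BC8 on the negative side. Repeated values were held by 12.6% of all genes and by 0 of the 7 variants. On the linear scale, the 8 negative repeated values stood to each other as the whole numbers from 3 to 10, and so did the 8 positive ones, within 4.1e-06. H4C14, H2BC11 and H2BC8 stood at 5, 8 and 10 of the negative series, and H2AC11 and H3C1 at 3 and 4 of the positive one. Each side thus moved in whole steps of its own unit, and what the unit is was not tested. Without repeated values, 9 of 15 replication-dependent genes were 1 or more in size, against 27.8% of all unrepeated genes. All 9 were positive and 0 lay at -1 or less, while unrepeated genes of the column had 1833 at 1 or more and 705 at -1 or less. The median of the 15 was 2.34, with 11 positive and 4 negative, and that of the 9132 unrepeated genes was 0.23. The divergent pair of H2BC11 and H2AC11 rests on a repeated value at both genes.

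The polyadenylated variants ran from -0.75 to 1.24 in HUH7, with an interquartile range near that of the column. CENPA, the H3 variant that marks centromeres, had 1.24 and was the only variant past 1 in the authors' deposited table. H3-3B, which encodes the replacement histone H3.3, followed with 0.86 in the authors' deposited table. These 2 H3 variants were the highest of the class. H2AJ had 0.45, and H2AZ2, which encodes a form of H2A.Z found at promoters, had 0.02 in the authors' deposited table. MACROH2A1 (-0.28) and MACROH2A2 (-0.48), whose products carry a large extra domain and are known from the inactive X chromosome, were both slightly negative in the authors' deposited table. The linker variant H1-10 was the lowest of the class, with -0.75 in the authors' deposited table. H2AX, whose product is phosphorylated at DNA breaks, had 0.32 in the authors' deposited table, within the range of the variants. Nearest to 1 in size lay CENPA and H2BC6 on the far side and H3-3B and H1-10 on the near side.

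Among replication-dependent genes, large values were held by a larger share of the short gene models, which also made up most of the class. Every repeated value of the class lay at a short gene, and the lengths were not compared without those values. Of 15 genes up to 1000 bases long in RefSeq, 12 held a value of 1 or more in size, with a median of 2.45. Of the 5 longer ones, 2 did, and these 5 ran from -0.56 to 2.77. Among genes that are not histones, 11 of 27 genes up to 1000 bases (40.7%) and 49 of 152 genes over 1000 and up to 2000 bases (32.2%) were 1 or more in size. The limit of 1000 bases was chosen after the values were seen. The level of each RNA was not analysed here, and its part in these values was not tested.

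**Figure D4:**
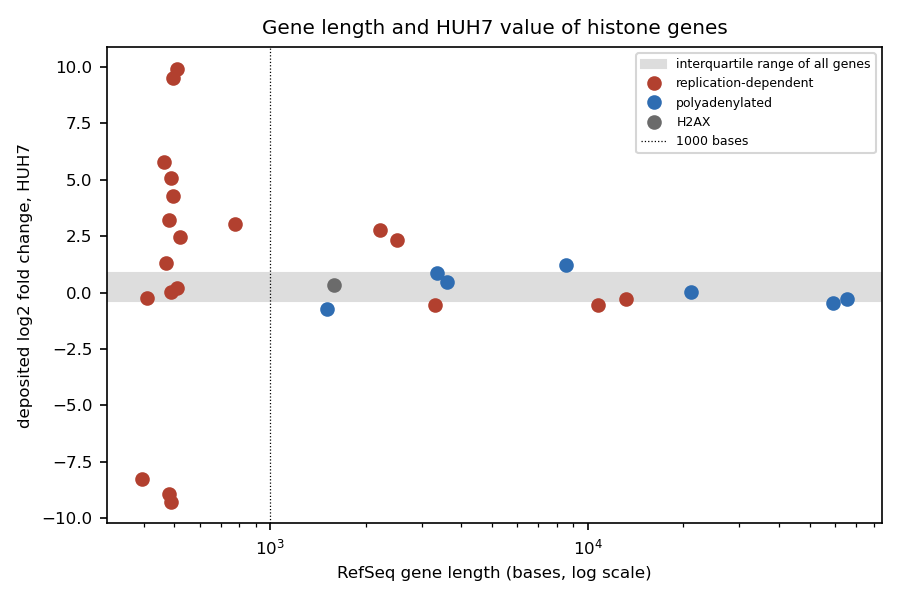
Deposited HUH7 log2 fold change of 28 histone genes against RefSeq gene length (log axis), with the interquartile range of all genes in grey. All values past 3 in size lie left of 1000 bases (dotted), where 15 of the 20 replication-dependent genes are.

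Most of the replication-dependent genes listed lie in the histone clusters of chromosome 6. The 17 listed genes of chromosome 6 had a median of 2.34, with 12 of 17 at 1 or more in size. Among the 12, H2AC11, H3C1, H2BC11 and H2BC8 held repeated values. Of the 3 genes on chromosome 1, 2 were at 1 or more in size. Over the whole column, 36.9% of genes were. The 10 other genes listed between the outermost of the 17 (positions 26020451 to 27893185) had 5 positive and 5 negative values, a median of 0.15 and 3 of 10 at 1 or more in size. ZNF322 (10.50 in the authors' deposited table), a zinc finger gene chosen after its value was seen, was the highest of these 10, and its value is a repeated one.

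In PLC/PRF/5 the column gives values per peak, and histone genes held 8 peaks in 6 genes. The linker histone genes were low in it. H1-5 had -2.0, H1-2 had 0.15 and H1-4 had 1.03 in the authors' deposited table, all below the column's lower quartile of 1.72. The variants lay near the middle, with 4.78 for H2AJ and 6.52 and 7.46 for the peaks of H2AZ2 in the authors' deposited table, against a column median of 5.44. H2AX had 1 peak on either side of 0, at -1.33 and 5.80 in the authors' deposited table. By the median of its peaks, 5 of the 6 genes were 1 or more in size, near the 89.0% of all 5475 genes, and 5 were positive, near the 90.3% of all genes. The column is filled evenly, its 15 bins of 1 log2 unit between -2 and 13 holding 599 to 655 peaks apiece, and the places of these 8 peaks in it are a description only.

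**Figure D5:**
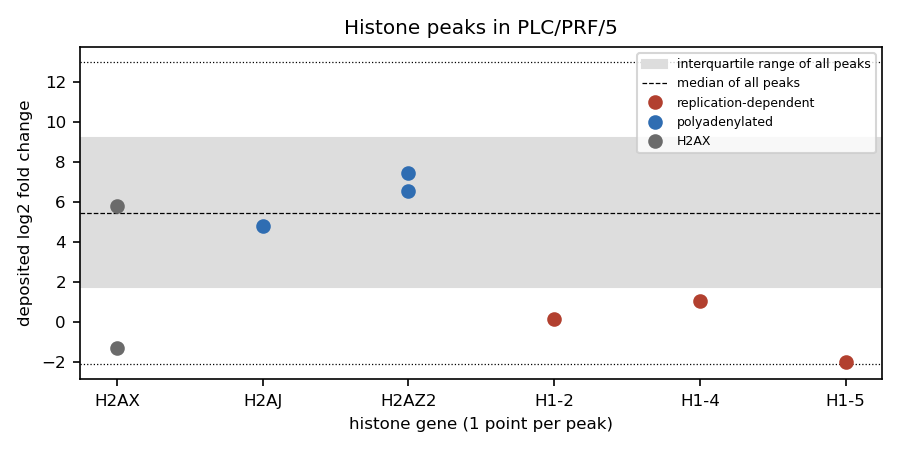
Deposited PLC/PRF/5 log2 fold change of 8 histone peaks in 6 genes (points), with the median (dashed), interquartile range (grey) and extremes (dotted) of all 9516 peaks. The linker genes H1-2, H1-4 and H1-5 lie below the grey band.

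The lines could be set side by side for 3 genes. H2AX had 0.32 in HUH7 and -1.33 and 5.80 in PLC/PRF/5, H2AJ had 0.45 and 4.78, and H2AZ2 had 0.02 and 6.52 and 7.46, as listed in the authors' deposited table. Whether both columns use the same direction is not stated, so signs were not compared between the lines. The scales of the columns also differ, with interquartile ranges of -0.36 to 0.87 and 1.72 to 9.19.

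Most genes that process histone mRNAs had small HUH7 values. Of 18 listed genes of histone mRNA 3′ end formation, 11 were positive and 7 negative, the median was 0.06, and 2 were 1 or more in size. CPSF4 (-2.08), a subunit of the polyadenylation factor that reads the signal, and CASP8AP2 (1.66), which encodes the histone processing factor FLASH, were those 2 in the authors' deposited table. PCF11 (0.92) and CPSF2 (0.59), which encode cleavage factors, followed in the authors' deposited table. The stem-loop binding protein gene SLBP (0.09), and LSM10 (0.15), LSM11 (-0.22) and ZNF473 (0.03) of the U7 machinery, were close to 0 in the authors' deposited table, and these 4 were chosen for their role in that machinery. CSTF2 was not listed in HUH7 and had 1 peak at -0.50 in PLC/PRF/5, as given in the authors' deposited table.

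Genes of histone mRNA decay had 12 positive and 6 negative values of 18, a median of 0.06 and 4 of 18 at 1 or more in size. MIF4GD (3.20), which encodes the SLBP-interacting protein, the decapping enzyme gene DCP2 (2.55), ERI3 (1.63) and LSM1 (1.23), a subunit of the ring that binds mRNA 3′ ends, led them in the authors' deposited table. Transcription and histone locus body genes had 6 positive and 5 negative values of 11, a median of 0.34 and 3 at 1 or more in size. E2F4 (2.15) led their unrepeated values, ahead of MYBL2 (-0.91), CDK2 (-0.77) and NPAT (0.62), the coactivator of the histone clusters, in the authors' deposited table. HINFP (10.73), the activator of H4 genes, and POU2F2 (-8.53), an octamer-binding factor, held repeated values in the authors' deposited table.

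Histone chaperones, which carry histones to and from DNA, had 16 positive and 15 negative values of 31, a median of 0.03 and 8 of 31 at 1 or more in size. MMS22L (5.77), UBN1 (2.07) of the complex that deposits H3.3, ASF1A (1.64) and ANP32E (-1.39), which removes H2A.Z, led their unrepeated values, as given in the authors' deposited table. The H3.3 chaperone DAXX (-9.11) held a repeated value in the authors' deposited table. In each of the 4 lists the share at 1 or more in size was below the 36.9% of all genes, and among replication-dependent histone genes it was 14 of 20. In PLC/PRF/5, by the median of each gene's peaks, 13 of 15 genes of 3′ end formation, 12 of 12 of decay, 4 of 4 of transcription and 23 of 25 chaperone genes were positive, beside 90.3% of all genes.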

How the data were processed

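Per the file headers, the authors deposited log2 fold changes of a difference, with 10447 values, 1 per gene, for HUH7 and 9516, 1 per peak, for PLC/PRF/5. FastQC 0.12.0 and build hg38 appear in the submitters' processing notes. How reads were aligned, peaks called, values scaled and genes filtered is not given in the sources used here. Only these values were analysed here, and depth is unknown. Names were matched to RefSeq (GRCh38.p14) through symbols or, failing that, a synonym pointing to 1 gene. All 28 HUH7 members described had a promoter in the RefSeq sequence table. A histone gene and a chaperone gene are not reported here and enter no count of members. Classes, lists and members were chosen with earlier results of these data known. A PLC/PRF/5 gene took the median of its peaks. Every other histone gene was named, and up to 4 unrepeated members of each of 4 pathway lists, by size in HUH7. With 1 library per group no test was run, and medians and counts stand beside those of the column. Marker presence says nothing of levels: 6 of 10 hepatocyte and 7 of 12 other markers were listed in HUH7, and 7 of 10 and 2 of 12 in PLC/PRF/5. Calculations used pandas 2.3.3 and were checked on simulated data.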

Additional observations from a re-analysis of the deposited data

How the results depend on the processing

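No paired analysis was possible because each group held 1 library and the labels carry no replicate numbers. The HUH7 median of replication-dependent genes was 1.83 and stayed positive under each alternative tried. It was 2.34 without repeated values, with the chromosome 6 clusters only, and without the member found only by its current symbol, 1.32 with H2AX counted or with core histones only, and 2.14 with H4-16 counted. The median of polyadenylated variants moved from 0.02 to 0.17 with H2AX counted. The difference of the medians, 1.81, became 2.32 without repeated values and also without the member found only by its current symbol, 1.30 and 1.66 with H2AX on the replication-dependent and the polyadenylated side, 2.12 with H4-16 counted, and 0.94 with means. The settings on H4-16 and on current symbols were chosen after seeing the data. The PLC/PRF/5 median over histone genes rose from 1.63 to 2.91 with each gene's largest peak, and to 2.91 with every peak as a value. At thresholds of 0.5 and 2, the counts over all 28 histone genes were 19 and 13 in HUH7, against 15 at 1. Counts of the 7 polyadenylated variants alone were 3, 1 and 0 at 0.5, 1 and 2. Of all HUH7 genes, 57.7%, 36.9% and 21.4% were at or past these thresholds. In PLC/PRF/5 the counts at 0.5 and 2 were 5 and 4 of 6 genes, against 5 at 1, where 89.0% of all genes lay. The shares of all PLC/PRF/5 genes at 0.5 and 2 were not computed. Depth is unknown, so what it limits cannot be given.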

Other observations

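The signs of the chromosome 6 histone genes in HUH7 were uneven between the strands, a pattern noticed in these values and not tested. On that chromosome, 8 of 10 replication-dependent genes on the plus strand were positive, with a median of 3.75, against 3 of 7 on the minus strand, with a median of -0.24. Part of this contrast rests on repeated values, at H2AC11 and H3C1 on the plus strand and H2BC11 and H2BC8 on the minus strand. Apart from these, the minus strand held H1-3 (3.03), H3C4 (2.34), H2AC17 (0.01), H4C8 (-0.24) and H2BC4 (-0.56) in the authors' deposited table. The plus strand held H2BC9 (5.79), H3C10 (5.09), H2AC13 (4.28) and H2AC16 (3.22) in the authors' deposited table. It also held H2AC6 (2.45), H2BC6 (1.32), H2BC5 (-0.28) and H3C6 (-0.53) in the authors' deposited table. Among these unrepeated values the signs were less uneven between the strands. All other genes of chromosome 6 with a known strand had 57.3% positive on the plus and 62.1% on the minus strand. Both listed divergent pairs had the higher value at the H2A gene on the plus strand. The 3 genes on chromosome 1 went the other way, with H2BC21 (2.77) and H2AC25 (0.21) on the minus strand and H4C14 (-8.27) on the plus strand, in the authors' deposited table. Over all 20 replication-dependent genes, 8 of 11 on the plus strand were positive, with a median of 3.22, and 5 of 9 on the minus strand, with a median of 0.01.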
